A study of Bos taurus with 8 samples.

Results

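The genes described here are 10 regulators that mark or sustain pluripotent cells, namely POU5F1, NANOG, SOX2, KLF4, LIN28A, LIN28B, SALL4, PRDM14, TDGF1 and ZFP42. They were found by symbol among the gene names that the count files give to consecutive 3Kb windows of the bovine genome (UMD v3.1). Windows carrying 8 of the 10 names were found, and no window carried the name SOX2 or ZFP42, so the values below cover 8 genes of 26227 named entries. These genes owned 70 of the 902984 windows, and 32 further windows flank them, 2 on each side of each gene. The DNA came from dermal fibroblasts cultured from shoulder skin of 4 Holstein (dairy) and 4 Angus (beef) heifers of the same age, at passage 5, without any treatment in either breed. Each animal gave 1 culture and 1 library, named here by breed and animal number, and breed cannot be told apart from the rearing of the calves, which usually differs between dairy and beef herds. The assay was MIRA-Seq, in which methyl-binding proteins pull down sonicated DNA with methylated CpG sites, so that read numbers grow with methylated CpG content. They also follow the number of CpG sites in a window, which was not corrected for, and it gives no percentage of methylation.

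POU5F1 (OCT4), NANOG and SOX2 form the transcription factor core of pluripotent cells, and SALL4, PRDM14, KLF4 and ZFP42 are DNA-binding factors that act with it. LIN28A and LIN28B are RNA-binding proteins that block maturation of let-7 microRNAs, and TDGF1 (CRIPTO) is a cell-surface co-receptor for NODAL. Most of these genes are silent in differentiated cells such as fibroblasts, where DNA methylation of regulatory regions is known to be part of the silencing of POU5F1 and NANOG. KLF4 differs in that it is also used in skin and other adult tissues. These data hold no RNA, so the levels below say nothing on expression.

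The libraries held between 18691111 and 35525554 reads in windows. All values are raw reads or counts scaled to 1000000 reads of these totals (CPM), and values compared between genes are CPM per kb. A count of 3 reads, taken as the smallest that can be told from 0, corresponded to 0.0844 to 0.161 CPM and covers counting error only, since PCR copies are not independent molecules. Holstein 1 and Angus 3 stood apart, with 69.0% and 72.4% of their reads in the top 1% of windows against 46.8 to 57.4% in the other 6, so the main counts are also given without them. Each window lists a single gene name and at most 1 coding exon number, so a window may hold exons that are not listed. The first window of a gene, by strand, is taken to stand for its promoter end, and the remaining windows are called the gene body. The first windows of POU5F1, NANOG and SALL4 list coding exon 1. Those of KLF4, LIN28A and LIN28B list exon 2, and those of PRDM14 and TDGF1 exon 3. Whether exon 1 lies in the same window could not be checked for these genes.

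First windows of the pluripotency genes were mostly low. POU5F1 had the highest level, 0.257 ± 0.110 CPM per kb (SD, n = 8 libraries), and LIN28B the lowest, 0.0245 ± 0.0188. Between them came TDGF1 (0.199 ± 0.0598), KLF4 (0.124 ± 0.0718), PRDM14 (0.0987 ± 0.0425), LIN28A (0.0725 ± 0.0319), NANOG (0.0660 ± 0.0334) and SALL4 (0.0416 ± 0.0334). Only POU5F1 and TDGF1 lay above the median first window of all 26227 named genes, 0.132 CPM per kb, at percentiles 72.9 and 65.2. The median over the 8 members was 0.0856 CPM per kb. Neighbors in this order were not separated beyond their spread: POU5F1 exceeded TDGF1 in 6 of 8 libraries by 0.0584 ± 0.0773 CPM per kb, and LIN28A exceeded NANOG in 3 of 8. In the gene bodies the order was led by SALL4, which exceeded POU5F1 in 8 of 8 libraries by 0.651 ± 0.175 CPM per kb. POU5F1 in turn exceeded KLF4 in 8 of 8 libraries by 0.157 ± 0.0748.

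**Figure D1:**
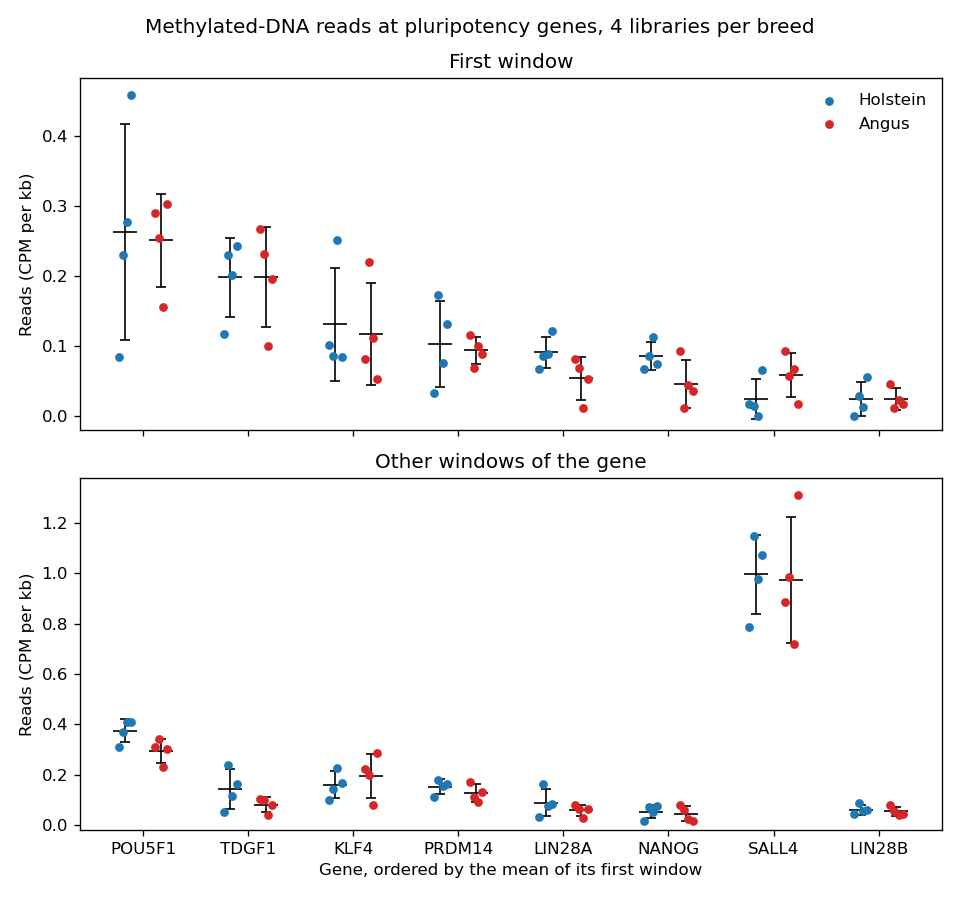
Reads in the first window (upper panel) and in the remaining windows (lower panel) of each of the 8 genes, in CPM per kb, with 1 point per library, the breed mean as a bar and its SD as whiskers (n = 4 per breed). The panels have different scales: first windows reach at most 0.460 CPM per kb, while the body of SALL4 lies between 0.719 and 1.31 CPM per kb in every library.

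The first window was compared with the gene body within each library to ask whether the promoter end carried fewer methylated fragments than the remainder of the gene. SALL4 and LIN28B, 2 of 8 genes, had a lower first window (FDR < 0.05 and FC ≥ 2 by edgeR's quasi-likelihood test with the library as a block), and 0 of 8 had a higher one by that rule. Over all 20766 genes tested, 35.0% were called lower and 12.9% higher, so the share of members called lower is near that background. In 2 of 8 members, again SALL4 and LIN28B, the first window lay below the body in all 8 libraries, which was so for 42.2% of all genes. No member had its first window above the body in all 8 libraries, against 16.5% of all genes. Without Holstein 1 and Angus 3 together the counts stayed at 2 and 0.

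**Figure D2:**
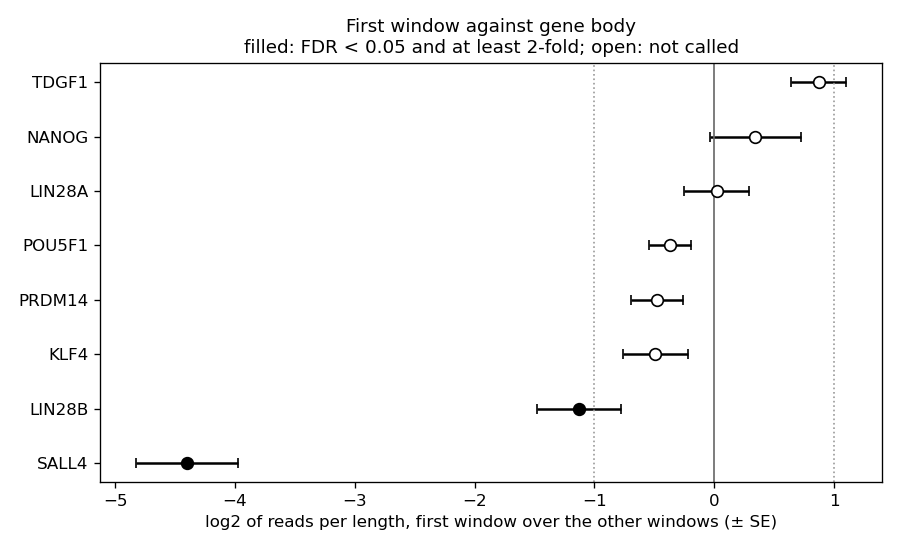
log2 ratio of reads per length in the first window over the remaining windows, from edgeR's fit over all genes, with the SE as whiskers; filled points passed FDR < 0.05 and a 2-fold change. SALL4 stands at -4.40 and LIN28B at -1.13, while the other 6 genes lie between -0.49 and 0.87.

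SALL4, a zinc finger factor of embryonic stem cells and germ cells, had the largest contrast between first window and body of the 8 genes. Its first window, with coding exon 1 (chromosome 13 from 80310797 to 80313796, minus strand), held 1, 1, 0 and 7 reads in the Holstein libraries (in the order of the animal numbers, here and below) and 8, 5, 6 and 1 in the Angus libraries. The fifth window, with coding exon 3 (80298797 to 80301796), held 128, 188, 189 and 263 reads in the Holstein and 170, 196, 172 and 188 in the Angus libraries. Every library thus held at most 8 reads at the first window and at least 128 at the fifth. In CPM the first window had 0.125 ± 0.1001 (SD, n = 8), the windows 2 and 3, without a listed exon, 0.390 ± 0.240 and 0.460 ± 0.235, and the windows 4, 5 and 6, with exons 2, 3 and 4, 4.19 ± 1.09, 7.22 ± 1.38 and 2.53 ± 0.456. At its deepest base the fifth window was covered by 12 to 25 reads per library and the first by 0 to 2. The fifth window ranked at percentile 99.5 of all autosomal windows, the first at 18.7.

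The last 3 windows held 2902 of the 3113 reads of SALL4, or 93.2%, and between 89.2% (Angus 1) and 97.0% (Holstein 1) in single libraries. Levels were lower on both sides of this stretch: the windows downstream had 1.30 ± 0.241 and 0.442 ± 0.182 CPM, and the unnamed windows upstream of the gene 0.731 ± 0.181 and 1.05 ± 0.285 CPM. The first window was therefore lower than its neighbors on both sides in the mean. Body against first window gave a 23.7-fold ratio of mean levels and a log2 ratio of -4.40 (SE 0.43, FDR 2.0e-23) for first over body in edgeR's quasi-likelihood test. Summing the upstream window with the first left the log2 ratio at -2.73 (FDR 1.2e-19), and without Holstein 1 and Angus 3 it was -4.52.

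**Figure D3:**
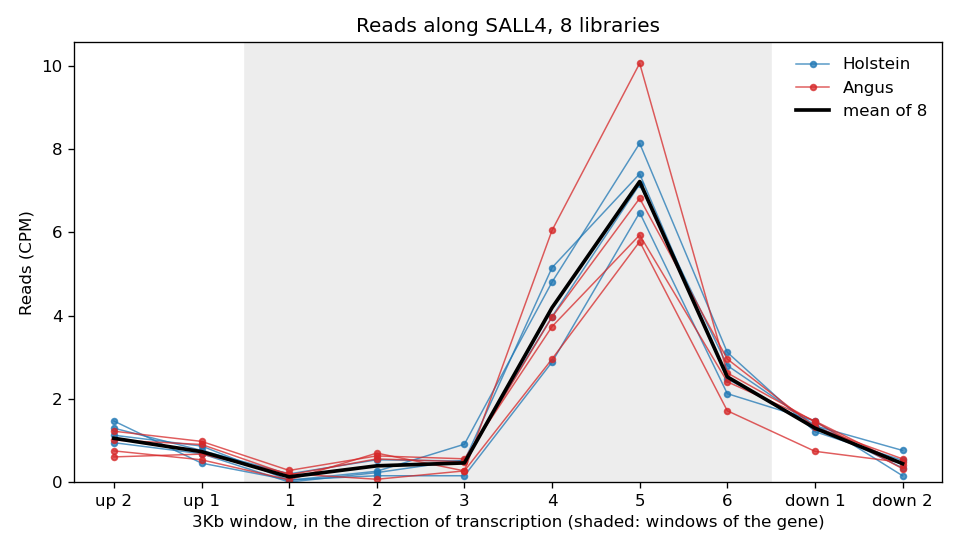
CPM in the 6 windows of SALL4 (shaded) and in the 2 windows on each side, in the direction of transcription, with a thin line per library and the mean of 8 in black. All 8 libraries hold at most 0.279 CPM in window 1 and at least 5.78 CPM in window 5.

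POU5F1, the factor that defines the pluripotent state together with NANOG and SOX2, had above-median reads in all its 3 windows. They ranked between percentiles 76.98 and 92.09 of all autosomal windows. The first window, with coding exon 1 (chromosome 23 from 27767793 to 27770792, plus strand), held 5, 16, 22 and 49 reads in the Holstein and 25, 22, 14 and 17 in the Angus libraries. Holstein 1 was the lowest and Holstein 4 the highest of all 8, so the Angus values lay inside the Holstein range. The mean was 0.772 ± 0.331 CPM in the first window, 0.605 ± 0.218 in the second and 1.41 ± 0.278 in the third, which lists coding exon 4. The 2 windows upstream, which carry the name BOLA of the major histocompatibility complex, were lower at 0.167 ± 0.0927 and 0.228 ± 0.105 CPM. Downstream, TCF19 had 0.4996 ± 0.167 CPM and CCHCR1 1.84 ± 0.597. First over body gave a log2 ratio of -0.37 (SE 0.17, FDR 0.044), under the 2-fold minimum. It passed the 2-fold rule at -1.09 (FDR 4.9e-08) when the upstream window was summed with the first.

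NANOG, the homeobox partner of POU5F1, was low throughout. Its first window, with coding exon 1 (chromosome 5 from 101870406 to 101873405, plus strand), held 4, 6, 9 and 8 reads in the Holstein and 8, 1, 4 and 2 in the Angus libraries, a mean of 0.198 ± 0.1003 CPM. The second window had 0.148 ± 0.0807 CPM, and the 4 unnamed flanking windows 0.172 to 0.273 CPM, so the gene did not stand out from its surroundings. First over body was 0.34 on the log2 scale (SE 0.38, FDR 0.41). POU5F1 and NANOG have processed pseudogenes in mammals, and how reads that match several places were counted is not given in the sources used here, so levels of both genes are uncertain to that extent.

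KLF4 and PRDM14, the other DNA-binding members with windows, showed a smaller contrast than SALL4. KLF4, a Krüppel-like factor that also drives differentiation of the skin barrier, had 6, 6, 20 and 9 reads in the first window in Holstein and 7, 19, 10 and 3 in Angus (chromosome 8 from 98846087 to 98849086, minus strand), 0.372 ± 0.215 CPM. Its second window had 0.534 ± 0.207 CPM, and both lay above the 4 flanking windows, which ranged from 0.120 to 0.227 CPM. First over body was -0.49 on the log2 scale (SE 0.27, FDR 0.086). It ranged from -0.64 to -0.31 when 1 library was left out, with an FDR under 0.05 without Holstein 3, Angus 2 or Angus 3 and the value nearest to 0 without Angus 4. It was -0.66 (FDR 0.040) without Holstein 1 and Angus 3 together, and -0.84 (FDR 0.0011) with the upstream window summed in, all short of 2-fold. PRDM14, which with POU5F1 maintains the naive state and specifies germ cells, had 0.296 ± 0.127 CPM in the first of its 7 windows (chromosome 14 from 35912947 to 35915946, minus strand). Its highest window was the last, with coding exon 7, at 0.733 ± 0.145 CPM and between 11 and 34 reads in every library. First over body was -0.48 (SE 0.22, FDR 0.036), under the 2-fold minimum. The windows upstream carry the name of NCOA2, a nuclear receptor coactivator, and had 0.338 ± 0.157 and 0.401 ± 0.204 CPM.

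TDGF1, the NODAL co-receptor, was the gene with the largest ratio in favor of the first window. That window (chromosome 22 from 53435867 to 53438866, minus strand, coding exon 3 listed) held 7, 16, 16 and 26 reads in Holstein and 23, 20, 9 and 11 in Angus. The second window held 5, 25, 14 and 26 reads in Holstein and 13, 12, 7 and 7 in Angus, and the third between 0 and 9 reads in every library. The first window lay above the body in 7 of 8 libraries, with Holstein 2 as the exception. The unnamed windows upstream had 0.299 ± 0.0730 and 0.703 ± 0.278 CPM, and downstream lay an unnamed window with 0.309 ± 0.101 CPM and a window of LOC100847508 with 0.613 ± 0.211, so the first window was within the range of its surroundings. The log2 ratio was 0.87 (SE 0.23, FDR 3.3e-04), short of 2-fold. It passed the 2-fold rule without Holstein 2, at 1.05 (FDR 5.4e-05), and when the window next to the first was left out of the body, at 1.91 (FDR 9.9e-08). With the upstream window summed in, the log2 ratio was 0.45 (FDR 0.035).

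Most windows of the 2 LIN28 genes, 4 of 5 in LIN28A and 33 of 42 in LIN28B, lay below the median window of the series, 0.280 CPM. LIN28A had 4, 6, 7 and 13 reads in the first window in Holstein and 7, 6, 1 and 3 in Angus (chromosome 2 from 127309334 to 127312333, minus strand), 0.217 ± 0.0957 CPM, and its other 4 windows had 0.145 to 0.344 CPM. First over body was 0.02 on the log2 scale (SE 0.27, FDR 0.95). Downstream lie windows of DHDDS, a dolichol synthesis gene, with 0.328 ± 0.0650 and 0.348 ± 0.187 CPM.

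LIN28B, spread over 42 windows on chromosome 9 from 45540651 to 45666650 on the minus strand, was the longest member. Its first window (45663651 to 45666650) held 0, 2, 1 and 6 reads in Holstein and 4, 1, 2 and 1 in Angus, 17 reads in all. The next 4 windows had 0.0290, 0.0162, 0.0285 and 0.0146 CPM, so the low stretch was not limited to the first window. Reads then appeared in isolated windows, the highest being window 7 with 0.723 ± 0.226 CPM and between 9 and 27 reads in every library, followed by window 31 with 0.563 ± 0.255 CPM. Neither of these lists a coding exon. Of the 42 windows, 9 were above the median window of the series and 25 had no read in at least 1 library. First over body was -1.13 on the log2 scale (SE 0.35, FDR 0.0020), and it was -0.78, under the 2-fold minimum, with the upstream window summed in. The unnamed windows upstream were low too, at 0.122 ± 0.0700 and 0.0714 ± 0.104 CPM, against 0.0735 ± 0.0564 in the first window. The median window of the gene had 0.113 CPM, so the low level was not particular to the promoter end.

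**Figure D4:**
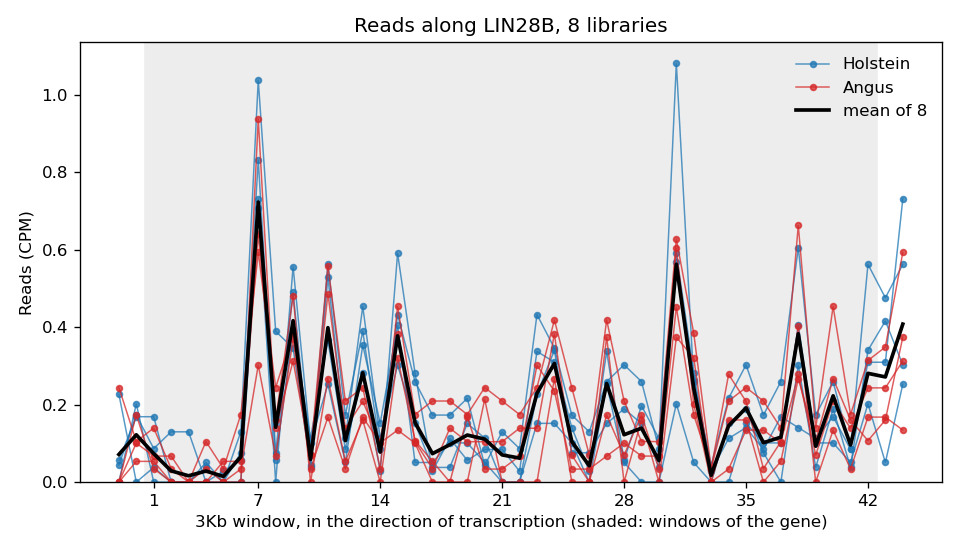
CPM in the 42 windows of LIN28B (shaded) and the 2 windows on each side, in the direction of transcription, with a thin line per library and the mean of 8 in black. The windows 2 to 5 stay near 0, and the mean peaks at 0.723 CPM in window 7 and 0.563 CPM in window 31.

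The breeds were compared to ask whether Holstein and Angus fibroblasts differ in methylation at these genes. No member was called for windows, first windows or whole genes (FDR < 0.1 and FC ≥ 2, edgeR's likelihood-ratio test), and none by the quasi-likelihood test or DESeq2's Wald test. DESeq2 gave no adjusted p to the first windows of SALL4, LIN28A and NANOG, so that test could not call them. Among single windows, only 4 of the 70 passed the filter (1 CPM or more in 4 or more libraries), namely windows 4, 5 and 6 of SALL4 and window 3 of POU5F1, and 0 of 4 were called, against 0.231% of all 115360 windows tested. Their log2 fold changes of Holstein over Angus were -0.10 (SE 0.16), -0.09 (SE 0.18), -0.03 (SE 0.16) and 0.17 (SE 0.20), with no unadjusted p under 0.05. Without the filter all 70 windows could be fitted, and 2 of them, window 1 of SALL4 and window 22 of LIN28B, had an unadjusted p under 0.05, with an adjusted p of at least 0.999996. Over the whole series 26753 of 887821 windows had an unadjusted p under 0.05 in that fit.

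For first windows, 0 of the 7 members with at least 24 reads were called, against 0.200% of 23458 genes. An unadjusted p under 0.05 was found for 957 of these genes and for 1 of the 7 members. That was SALL4, with 0.0242 ± 0.0286 CPM per kb in Holstein and 0.0590 ± 0.0312 in Angus (SD, n = 4), a log2 fold change of -1.35 (SE 0.66, 95% interval -2.64 to -0.063, adjusted p = 1.00). The breeds overlapped, since Holstein 4 held 7 reads and Angus 4 held 1. The unadjusted p was 0.062 when edgeR's quasi-likelihood test was used, 0.084 in DESeq2 and 0.054 with the animal number as a replicate block in edgeR, and with the upstream window summed in the log2 fold change was -0.51 (unadjusted p = 0.090). All 8 members overlapped between the breeds in the first window, and 2.40% of the tested first windows did not. NANOG and LIN28A had log2 fold changes of 0.66 (SE 0.55) and 0.63 (SE 0.51), and those of POU5F1, KLF4, PRDM14 and TDGF1 lay between -0.13 and -0.02 with SE of 0.30 to 0.46. The 95% intervals of LIN28A (-0.36 to 1.62) and NANOG (-0.42 to 1.74) reached past a 2-fold difference, which was not detectable at this depth, while those of the latter 4 genes lay within -0.94 and 0.85. Single libraries moved the former 2 genes: NANOG had 1.27 without Angus 1 (unadjusted p = 0.038 and adjusted p = 0.74 in edgeR's fit) and 0.27 without Angus 2, and LIN28A had 0.94 without Angus 1 and 0.39 without Angus 3. With the upstream window summed in, LIN28A had 0.14.

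For whole genes, 0 of the 6 members that passed the CPM filter were called, against 0.0464% of 19417 genes. An unadjusted p under 0.05 was found for 296 of these genes and for 0 of the 6 members. By the quasi-likelihood test 0 of all 19417 genes were called. SALL4 had the narrowest interval, 0.834 ± 0.132 CPM per kb in Holstein and 0.822 ± 0.204 in Angus, a log2 fold change of -0.10 (95% interval -0.35 to 0.14). The means are scaled to total counts and the fold changes to TMM library sizes, so they can differ in sign, and SALL4 had 0.024 on the log2 scale when total counts alone set the library sizes. POU5F1 had 0.337 ± 0.0797 and 0.281 ± 0.0507 CPM per kb (log2 fold change 0.13, interval -0.20 to 0.46). LIN28A had the largest difference, 0.50 (interval -0.15 to 1.16). All 8 genes overlapped between the breeds, and 1.43% of the tested genes did not. NANOG and KLF4 did not reach the filter, with log2 fold changes of 0.40 (SE 0.43) and -0.22 (SE 0.31) when it was dropped. The contrast of first window and body differed between the breeds in 0 of 8 members (FDR < 0.05 in edgeR's quasi-likelihood test), against 0.0385% of 20766 genes. An unadjusted p under 0.05 was found for 723 of these genes and for 0 of the 8 members. SALL4 (log2 difference -1.25, SE 0.65, unadjusted p = 0.056 in edgeR's fit over all genes) and TDGF1 (-0.77, SE 0.44, unadjusted p = 0.076) had the lowest p values. The difference of SALL4 stayed negative in all 8 fits without 1 library, but its size moved with single libraries. The difference was -2.69 without Holstein 4 (unadjusted p = 0.0042 in edgeR's fit), -1.58 without Angus 4 (unadjusted p = 0.014) and -0.85 without Holstein 3 (unadjusted p = 0.18), with an adjusted p of 1.00 each time. That of TDGF1 lay between -0.87 and -0.54 when 1 library was left out.

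**Figure D5:**
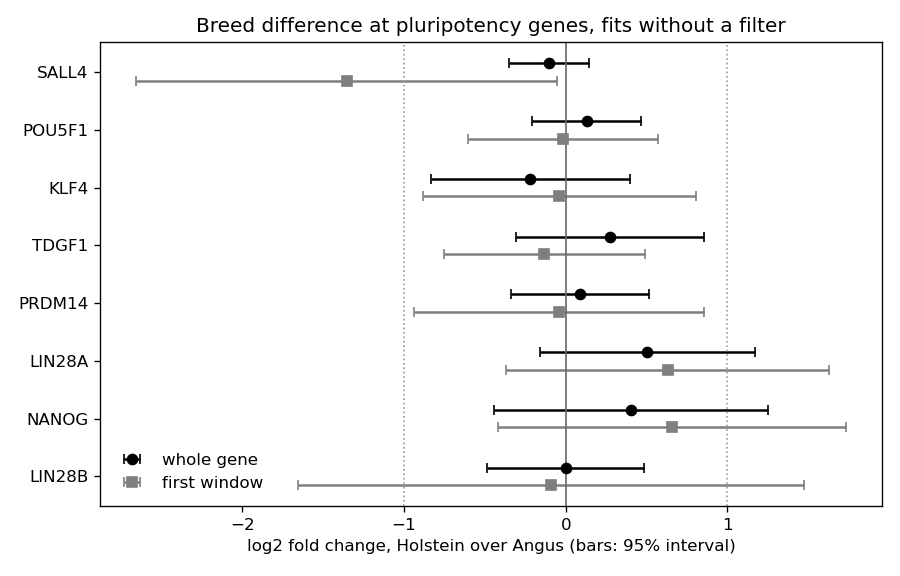
log2 fold change of Holstein over Angus for the whole gene (circles) and the first window (squares) of the 8 genes, from fits without a filter on low counts, with 95% intervals. All 8 whole-gene intervals include 0, and the first window of SALL4 is the one interval that does not, at -1.36 from 29 reads in all.

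Other genes of the pluripotency network were described with the same measures. Of 27 transcription and chromatin factors 23 were named by the files, and of 11 signals, receptors and surface proteins all 11, which gives 34 genes. Their median first window, 0.132 CPM per kb, equaled that of all named genes to 3 digits. First window against body was tested in 33, and 15 were called lower and 6 higher, against 35.0% and 12.9% of all 20766 genes tested. The lowest first windows among the 34 belonged to MYCN, ETV5 and MYC, growth and self-renewal factors, with 0.0255 ± 0.0262, 0.0293 ± 0.0168 and 0.0377 ± 0.0227 CPM per kb. All 3 were called lower than their bodies, MYCN by a log2 ratio of -4.70 (SE 0.48), close to that of SALL4. The highest belonged to TERT, the telomerase subunit, with 1.86 ± 0.508 CPM per kb, followed by ESRRB, an orphan nuclear receptor of naive cells, with 0.938 ± 0.220. ESRRB was called higher than its body, with a log2 ratio of 1.23 (SE 0.15), and TERT was not (-0.56, SE 0.11). No gene of this list was called between the breeds, for 31 first windows and 31 whole genes tested. Over all genes 0.200% of first windows and 0.0464% of whole genes were called. Among the 31 first windows 1 had an unadjusted p under 0.05, against 957 of 23458 over all genes. That was the LIF receptor gene LIFR (log2 fold change 0.56, unadjusted p = 0.039 in edgeR's fit).

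Germline genes, whose promoters are often methylated in somatic cells, and fibroblast markers were set beside them. Of 20 germline genes 19 were named by the files, with a median first window of 0.563 CPM per kb, from 0.114 (PIWIL1) to 1.46 (TDRD9), and 15 of 19 were called higher than their bodies and 0 lower. For 16 fibroblast markers the median was 0.0789 CPM per kb, from 0.00827 (DCN) to 0.176 (S100A4), with 10 of 16 called lower and 1 higher. Of all 20766 genes tested 35.0% were called lower and 12.9% higher. In the median of their first windows, 0.0856 CPM per kb, the members stood nearer to the fibroblast markers than to the germline genes. The median ratio of first window over body was 0.738 for the members and 0.689 for all genes. It was 0.393 for the fibroblast markers and 5.08 for the germline genes. Of the members 2 of 8 were called lower and 0 higher, and the difference between the lists was not tested. Markers of other skin and blood cells had medians of 0.477 (5 keratinocyte genes), 0.317 (5 melanocyte genes), 0.183 (5 endothelial genes) and 0.192 CPM per kb (4 leukocyte genes). Summed over a library, first windows of the fibroblast markers gave 1.87 to 5.12 CPM in Holstein and 1.98 to 4.49 in Angus, and those of the 19 other markers 13.2 to 22.8 and 11.3 to 20.2 CPM. No marker was without reads in all libraries, and since these are DNA reads they do not test which cell types the cultures held.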

How the data were processed

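The members and gene lists were chosen with earlier results of these data known. Libraries came from genomic DNA of un-treated cultures, enriched with the MethylCollector Ultra kit (MBD2b/MBD3L1). Reads were matched to UMD v3.1 with NextGENe 2.3.4 after CASAVA 1.7, per the file headers and the submitters' processing notes, and the authors deposited raw read counts per 3Kb window, without normalization, beside NextGENe's lowest, highest and mean coverage of the bases in a window, of which the highest is given for SALL4. Windows with a member's name before the semicolon were taken, with 2 windows on each side. Counts were divided by the total over windows for CPM, and by length for CPM per kb.

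Breeds were compared after the study's methods with edgeR 4.0.16 (likelihood-ratio test, TMM, Benjamini-Hochberg over all rows, FDR < 0.1, FC ≥ 2) in R 4.3.3, for windows and for genes summed over windows with 1 CPM or more in 4 or more libraries, and for first windows with at least 24 reads in all. First windows were compared with gene bodies by edgeR's quasi-likelihood test over all genes with 2 or more windows and at least 24 reads, with the library as a block, length as an offset, and FDR < 0.05 and FC ≥ 2. TMM factors ran from 0.677 to 1.22. The scripts were tested on simulated counts. Alternatives tried were DESeq2 1.42.0, edgeR's quasi-likelihood test for the breeds, other scaling, filters, thresholds and window definitions, an exact sign-flip permutation test, a replicate block and leaving out libraries. Leaving out Holstein 1 and Angus 3 together was chosen after seeing the data. Named were all members, the owners of flanking windows, and of the network list the 3 genes with the highest and the 3 with the lowest first window, with any breed call, except that 1 of these genes is not reported here. LIFR was named after its value was seen. DPPA5, UTF1, DNMT3B, L1TD1 and SYCP1 of the lists name no window. Pairs of libraries of a breed differed beyond sampling noise (chi-square per window 3.23 to 21.5). Labels give the breed and a number, and by the study's methods the cultures came from 4 animals of each breed. Sequences and expression are not analysed here. Other steps used Python 3.11.15, numpy 2.4.6, pandas 2.3.3, scipy 1.17.1 and matplotlib 3.10.9.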

Additional observations from a re-analysis of the deposited data

Results flagged for a closer look

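The first window of KLF4 had 0.252 CPM per kb in Holstein 3, far above the other 3 Holstein libraries, of which the nearest had 0.101. The gap was 0.9005 of the range of the group, above Dixon's 95% critical value for 4 samples. It was the 1 group set apart among 32 examined, and chance sets apart about 1 in 20. Angus 2 had a similar value, 0.220 CPM per kb, among the Angus libraries. The value rests on 20 reads.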

How the results depend on the processing

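No member was called between the breeds for windows, first windows or whole genes under any alternative run. Some runs held few or no members, so they could not call the others. With 1 CPM or more required in 4 or more libraries, 0 member first windows were tested. With 1 CPM or more required in all 8 libraries, 3 member windows were tested. Without Holstein 1 and Angus 3 together 6 member first windows were tested, and SALL4 was not among them. SALL4 and LIN28B remained called lower in the first window than in the body, except with the upstream window summed in. There SALL4 stayed called, LIN28B lost the fold minimum and POU5F1 passed both thresholds, so the count stayed at 2. Without a fold minimum, 4 of 8 members were called lower and 1 higher, against 10592 lower and 5012 higher of all 20766 genes. The 2 added to the lower ones were POU5F1 and PRDM14, whose FDR was 0.066 and 0.063 by DESeq2. In edgeR's fits that of POU5F1 was 0.075 to 0.15 without any 1 of Holstein 1, 2 and 3 and Angus 2 and 3, and that of PRDM14 0.067 to 0.097 without any 1 of Holstein 1 and 3 and Angus 1 and 2. With the window next to the first left out of the body 1 of 6 was called higher, against 2023 of 16667 genes. Leaving out each library in turn gave 2 called lower each time and 0 to 1 higher, the 1 being TDGF1 without Holstein 2. Shallow windows limit all of this, since 27 of the 70 member windows had no read in at least 1 library.

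The uncalled breed differences near 0 changed sign in places. Total counts without TMM shift the median log2 fold change of all genes by 0.145, of first windows by 0.160 and of windows by 0.142, and gave log2 fold changes of 0.028, 0.036 and 0.12 for windows 4, 5 and 6 of SALL4. They gave 0.16, 0.023, 0.14 and 0.13 for the first windows of PRDM14, TDGF1, POU5F1 and KLF4, and 0.024 and 0.17 for the whole genes SALL4 and LIN28B, so against the shift all but PRDM14 and LIN28B stayed negative. Without Holstein 1 and Angus 3 together the first windows of PRDM14, POU5F1 and KLF4 gave 0.32, 0.12 and 0.085 and LIN28B 0.047, and DESeq2 gave LIN28B 0.0027. With the upstream window summed in, POU5F1 gave 0.11. Leaving out 1 library gave -0.17 to 0.0056 for window 4 and -0.095 to 0.082 for window 6 of SALL4, and for first windows -0.56 to 0.34 (KLF4), -0.38 to 0.16 (POU5F1), -0.33 to 0.16 (PRDM14) and -0.24 to 0.073 (TDGF1). For whole genes it gave -0.20 to 0.26 (LIN28B) and -0.034 to 0.29 (PRDM14), and the first window of SALL4 kept -1.63 to -0.95 in the 5 fits where it passed the filter. First over body of LIN28A gave -0.12 to 0.20 without 1 library, -0.091 without the window next to the first and -0.022 in the exact sign-flip test. The causes were not tested.

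The labels number the libraries 1 to 4 in each breed without stating a pairing, and same-numbered libraries did not deviate together (correlations -0.212, 0.0478, -0.0457 and 0.131, mean -0.0198, against 0.0114 for different numbers). With the number as a replicate block 0 member windows, first windows and genes were called, as without it. The block gave LIN28B 0.042 and the first window of SALL4 -1.40, and 346 windows of the whole genome in place of 267.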
